A study of Mus musculus with 6 samples.

Results

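The complement genes measured here are the 3 chains of C1q (C1qa, C1qb and C1qc), the convertase components C4b, C2, C3 and Cfb, and the anaphylatoxin receptors C3ar1 and C5ar1. They were found on the array by gene name among 34821 distinct names, and all 9 genes were present, with 10 probes in all, C3 alone having 2. The samples were aortic arches of female C57BL/6 mice, 3 per group, hybridised 1 mouse to an array. Every recipient was Mir21+/+ and had been X-irradiated with 2 doses of 5 Gy within 4 h, then given bone marrow intravenously from Mir21+/+ donors (BM Mir21 WT) or Mir21–/– donors (BM Mir21 KO). All mice ate a high-fat diet for 12 weeks, starting 3 weeks after irradiation. The deletion was therefore confined to cells descended from donor marrow, and the share of arch cells that came from the donor is not given in the labels. The comparison asks whether loss of miR-21 from marrow-derived cells changed complement transcripts in the arch.

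Complement is a cascade of plasma and tissue proteins. C1q binds antibody or dying cells and starts the classical route, which cuts C4 and C2 to form an enzyme that cuts C3, while factor B (Cfb) builds the alternative enzyme that amplifies C3 cleavage. The small fragments C3a and C5a act on the receptors C3ar1 and C5ar1 of myeloid cells. In arteries macrophages are a known source of C1q, and C3 is made by macrophages, fibroblasts, mesothelium and fat cells as well as by liver.

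The miRNA deleted in the knockout donors is shown because its loss defines the comparison, as its mature 5p strand from RefSeq (GRCm38.p6, chr11:86584120-86584141, minus strand), with the seed, bases 2 to 8, in capitals.
mmu-miR-21a-5p: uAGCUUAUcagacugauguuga
The array carried 0 probes named Mir21 or Mir21a, so the deletion itself could not be checked. The levels below rest on 60-base probes, of which 4 are shown because they report C1q, C3 and factor B. They are written 5′ to 3′ as the scanner files give them, with mm9 coordinates, all on the minus strand.
C1qa (chr4:136452409-136452468): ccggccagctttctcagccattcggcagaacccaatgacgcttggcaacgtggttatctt
C1qb (chr4:136436578-136436637): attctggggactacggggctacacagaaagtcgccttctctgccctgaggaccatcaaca
C3, dimmer probe (chr17:57343678-57343737): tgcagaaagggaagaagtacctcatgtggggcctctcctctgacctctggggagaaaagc
Cfb (chr17:34993502-34993858): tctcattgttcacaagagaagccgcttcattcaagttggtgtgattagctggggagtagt
The Cfb coordinates span 357 bases, more than the 60 of the probe. Whether the probes lie in coding or untranslated sequence was not analysed here. The C1q probes lie together within 15.9 kb of chromosome 4, and the C4b, C2 and Cfb probes within 134 kb of chromosome 17, those of Cfb and C2 within 6.13 kb. The other probes, also on the minus strand, were C1qc at chr4:136445766-136445825, C4b at chr17:34865328-34865387, C2 at chr17:34999575-34999634, the brighter C3 probe at chr17:57343416-57343475, C3ar1 at chr6:122798222-122798281 and C5ar1 at chr7:16832243-16832302. C4b has a near-identical neighbour, C4a, for which the array had 0 named probes, so its signal may include C4a.

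Each level is the log2 of the processed signal after subtraction of that array's 75th percentile, and each difference is the mean with knockout marrow less the mean with wild-type marrow. The arrays had 66.4% (knockout replicate 3) to 74.4% of spots well above background and 0 saturated spots. Contractile smooth muscle markers, the defining genes of the arterial wall, were all measured (10 of 10) with array means of 5.42 to 6.14. The 6 arrays shared 1 slide. Its row 1 held the wild-type group and its row 2 the knockout group, which means that position on the slide and marrow genotype cannot be told apart. Knockout replicates 2 and 3 were poor in fat-cell transcripts: the mean of 15 adipocyte markers was 5.28, 4.53 and 5.48 in the wild-type group against 5.44, 3.14 and 1.93 in the knockout group.

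Complement transcripts of the arch did not differ detectably between the marrow groups. Of the 9 member probes that could be tested, covering 8 genes, 0 passed the adjusted test (limma, Benjamini-Hochberg over 38340 probes, threshold 0.05), against 0.00261% of all probes. At an unadjusted p under 0.05 the count was also 0, against 8.71% of all probes, and in each of the 9 the groups overlapped, whereas they did not in 13.7% of all probes (7.68% with the knockout group higher and 6.06% with it lower). The median difference of the 8 genes was 0.04, that of all tested probes 0.02, and the members ran from -0.11 for C4b to 0.29 for C1qb. With 3 mice per group these values leave room for real differences: only C4b had a 95% interval narrower than 1 on the log2 scale. The series' design names 3 mice per group. In bulk tissue fewer cells of a type and less RNA per cell cannot be told apart.

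**Figure D1:**
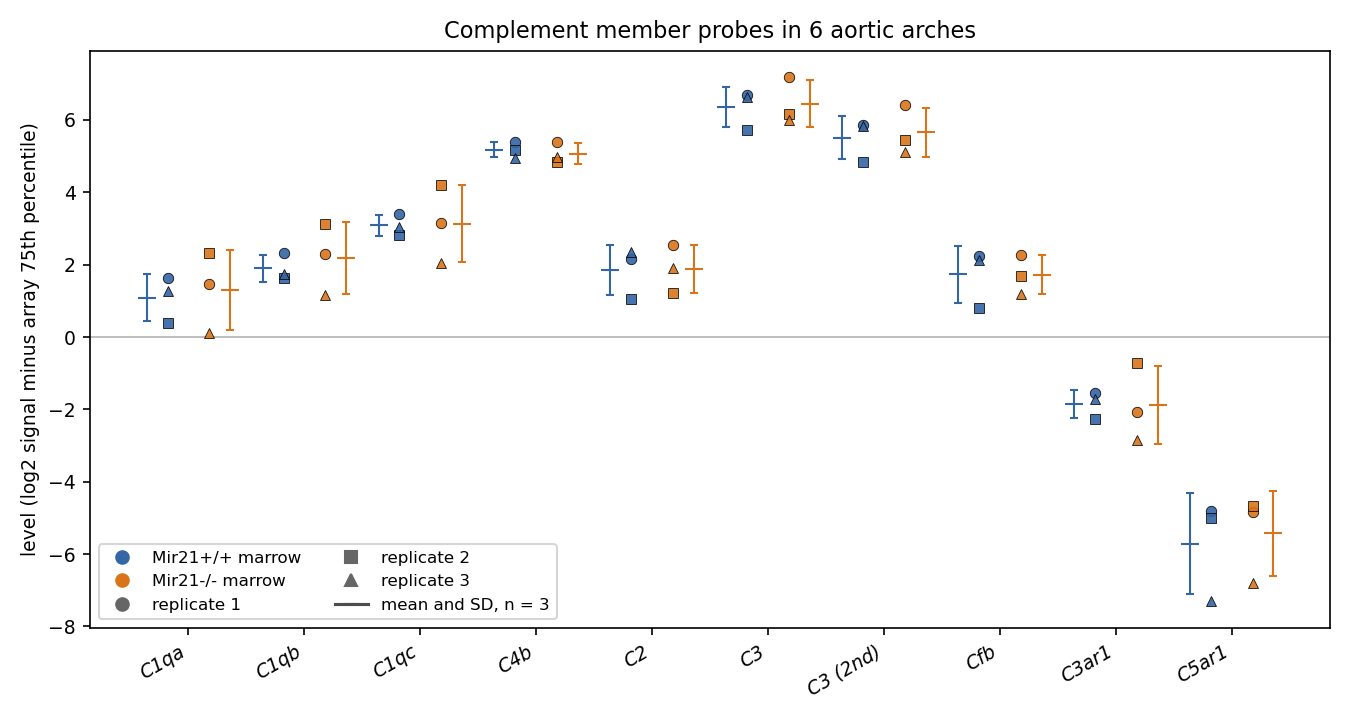
Level of each complement probe (log2 signal minus the array's 75th percentile) on the 6 arrays, with circles, squares and triangles for replicates 1, 2 and 3, and bars for the mean ± SD (n = 3). Wild-type and knockout points overlap for every probe, and the C1q and C3ar1 values spread more widely with knockout marrow. C5ar1 was not well above background on 3 of the 6 arrays.

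The 3 chains of C1q, the recognition molecule of the classical pathway, had group means that differed by 0.04 to 0.29 and varied most among the knockout mice. C1qa, the A chain, read 1.62, 0.38 and 1.27 in the wild-type group and 1.47, 2.32 and 0.11 in the knockout group, in replicate order. The highest and the lowest arch of all 6 were both in the knockout group, replicates 2 and 3, and this held for each chain. C1qa averaged 1.09 ± 0.64 against 1.30 ± 1.11 (SD, n = 3), a difference of 0.21 ± 0.56 (SE) with a 95% interval from -1.10 to 1.52 (limma, adjusted p = 0.93). In fold terms the interval runs from 2.14-fold lower to 2.87-fold higher.

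C1qb, the B chain, read 2.33, 1.63 and 1.74 against 2.29, 3.13 and 1.16. Its means were 1.90 ± 0.38 and 2.19 ± 0.99 (SD, n = 3), a difference of 0.29 ± 0.47 (SE) with an interval from -0.81 to 1.38 (limma, adjusted p = 0.88). C1qc, the C chain, was measured by 10 spots per array. It read 3.39, 2.82 and 3.05 in the wild-type group and 3.15, 4.19 and 2.05 in the knockout group, so the group means of 3.09 and 3.13 were nearly equal. The difference was 0.04 ± 0.49 (SE), with an interval from -1.10 to 1.19. The 10 spots of an array had an SD of 0.03 to 0.14, far under the SD of 1.07 among the 3 knockout mice, so the spread of C1qc was between arrays and not between spots. Without knockout replicate 2, the arch highest in C1q, the differences were -0.30 for C1qa, -0.18 for C1qb and -0.49 for C1qc. Without knockout replicate 3, the lowest, they were 0.80, 0.81 and 0.58. In both cases the adjusted test was not passed.

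The group means of C3, Cfb and C2 differed by at most 0.15, and a different set of mice was high and low. C3, the protein on which all routes converge, read 6.70, 5.72 and 6.63 in the wild-type group and 7.19, 6.15 and 6.01 in the knockout group on its 10-spot probe. Wild-type replicate 2 was the lowest and knockout replicate 1 the highest of the 6. The means were 6.35 ± 0.55 and 6.45 ± 0.64 (SD, n = 3), differing by 0.10 ± 0.38 (SE; interval -0.80 to 0.99; limma, adjusted p = 0.96). The dimmer C3 probe ordered the mice in the same way, at 5.86, 4.83 and 5.84 against 6.41, 5.44 and 5.11, and gave 0.15 ± 0.40. Its processed signal on the arrays ran from 8234 to 27898, and that of the 10-spot probe from 15343 to 47748. The 10 spots of an array had an SD of at most 0.04.

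Cfb, the serine protease of the alternative convertase, followed C3. It read 2.25, 0.81 and 2.13 in the wild-type group and 2.28, 1.70 and 1.20 in the knockout group, and its difference was -0.0045 ± 0.43 (SE), with a 95% interval from 2.01-fold lower to 2.00-fold higher. C2, the corresponding protease of the classical convertase, read 2.15, 1.06 and 2.34 against 2.54, 1.20 and 1.90. Its difference was 0.03 ± 0.43 (SE; interval -0.97 to 1.04), and its low arches were replicate 2 of each group.

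C4b, the C4 gene whose product anchors the classical convertase, was the steadiest member. It read 5.38, 5.18 and 4.96 in the wild-type group and 5.40, 4.84 and 4.98 in the knockout group, a range of 0.56 over all 6 mice, where the other 8 tested probes ranged over 1.47 to 2.20. The difference of -0.11 ± 0.21 (SE) had an interval from -0.59 to 0.38 (limma, adjusted p = 0.91). A level more than 1.50-fold lower or more than 1.30-fold higher lies outside it.

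Of the receptors, C3ar1 was measured in every arch and C5ar1 only in some. C3ar1, the G-protein-coupled receptor for C3a, read -1.54, -2.27 and -1.72 in the wild-type group and -2.07, -0.71 and -2.83 in the knockout group. As with C1q, knockout replicate 2 was highest and knockout replicate 3 lowest. The means of -1.84 ± 0.38 and -1.87 ± 1.07 (SD, n = 3) differed by -0.03 ± 0.50 (SE; interval -1.20 to 1.14; limma, adjusted p = 0.99). This probe was dim, with processed signals from 33.4 to 236, and its difference was 0.15 with normexp background correction. C5ar1, the receptor for C5a, was well above background on wild-type replicate 1 and knockout replicates 1 and 2 only, with processed signals of 14.2, 11.5 and 15.3. On the other arrays it was not well above background (10.6, 2.57 and 2.15), so neither group was measured in full, the gene was not tested and no fold is given.

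Among themselves the members fell into a C1q and C3ar1 pattern and a C3, Cfb and C2 pattern. Likeness was measured as the root mean square distance between profiles over the 6 arrays, each centred on its own mean, so that 0 means the same ups and downs. C1qb and C1qc lay 0.15 apart, and C1qa 0.25 from each. C3ar1 lay 0.15 from C1qc, 0.26 from C1qb and 0.26 from C1qa, although it is a receptor encoded on another chromosome. C3 lay 0.21 from Cfb and 0.27 from C2, whereas the mean profile of the C1q chains and that of C3, Cfb and C2 were 0.71 apart. C4b lay 0.41 from C3 and 0.71 from the mean of C1q. These distances describe 6 arrays, share each array's scaling and carry no test.

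The mean of macrophage markers followed the first pattern, and single markers did so in part. Of the 18 listed markers 17 were tested, all but Cd163, and their array means ran from 0.62 to 1.29 in the wild-type group and from 0.37 to 1.86 in the knockout group, highest on knockout replicate 2 and lowest on knockout replicate 3. The C1q mean lay 0.19 from the macrophage markers and 0.50 from the fibroblast markers, the next nearest of 10 cell type lists. C3ar1 likewise lay 0.23 from the macrophage markers and 0.51 from the fibroblast markers. On its brightest probe Cd68, a lysosomal glycoprotein of macrophages, read 3.01, 1.88 and 2.07 against 2.06, 4.04 and 1.42. Csf1r, the receptor for macrophage colony-stimulating factor, stayed between 3.86 and 4.34 on its brightest probe. The group difference of Cd68 was 0.19 there and 0.92 on its other probe. That of Csf1r was -0.05 there and 0.53 and -0.03 on its others. Of the 17 markers, 12 were highest on knockout replicate 2, 10 were lowest on knockout replicate 3, and 5 did both. Some shared only the low arch: Lyve1 and Folr2, of resident macrophages, were highest on wild-type replicate 3, and Cx3cr1, the fractalkine receptor, on wild-type replicate 2. Each of these 3 was lowest on knockout replicate 3, as C1q was. These 3 and the genes named next were singled out after their values were seen. Lyz2, lysozyme, and Adgre1 (listed as Emr1) had all knockout arches above all wild-type arches. They were the only 2 of the 17 markers to do so, against 7.68% of all probes. Their differences of 1.64 and 0.53 did not pass the adjusted test (limma). The part of macrophage content in the C1q levels was not tested.

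**Figure D2:**
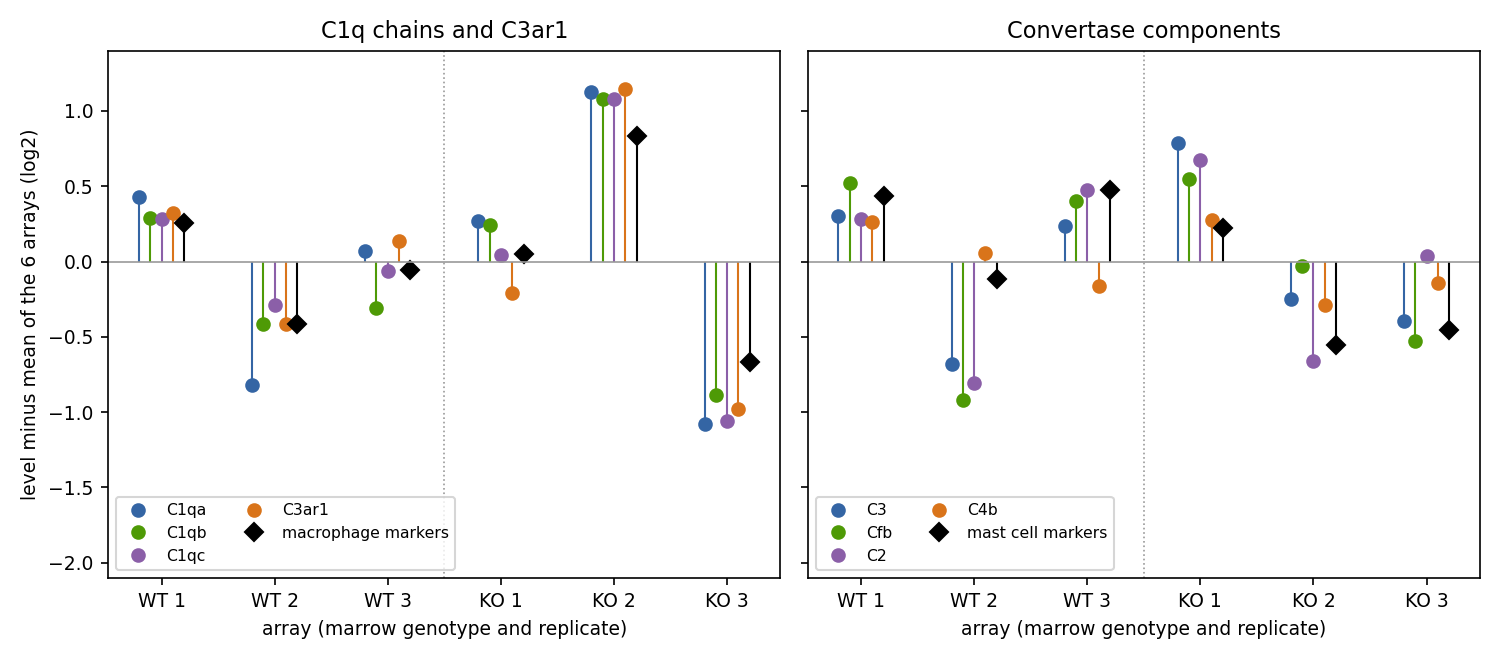
Centred profiles over the 6 arrays, as log2 level minus the mean of all 6. On the left, C1qa, C1qb, C1qc and C3ar1 are highest on KO 2 and lowest on KO 3, as is the mean of 17 macrophage markers, and on the right C3, Cfb and C2 are low on WT 2 and high on KO 1, beside C4b and the mean of 6 mast cell markers, the list nearest to the mean of C3, Cfb and C2.

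Subtracting each array's macrophage marker mean narrowed the C1q and C3ar1 values and not those of C3, C2 or C4b. The subtraction uses the same profiles as the distances to the macrophage list, so the ranges describe them again and are not separate support. The range of C1qc over the 6 arches went from 2.14 to 0.64, that of C1qb from 1.97 to 0.50, that of C1qa from 2.20 to 0.71 and that of C3ar1 from 2.12 to 0.63. The range of C3 went from 1.47 to 1.82, that of C2 from 1.48 to 2.19, that of C4b from 0.56 to 1.64 and that of Cfb from 1.47 to 1.36. On this relative scale the groups overlapped for every member as well. C1qb differed by 0.15 (0.94 ± 0.15 against 1.09 ± 0.26, SD, n = 3, exact permutation p = 0.5), C1qc by -0.10 (exact permutation p = 0.7) and C3ar1 by -0.17 (exact permutation p = 0.4), two-sided, where 3 mice against 3 cannot go below 0.1.

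**Figure D3:**
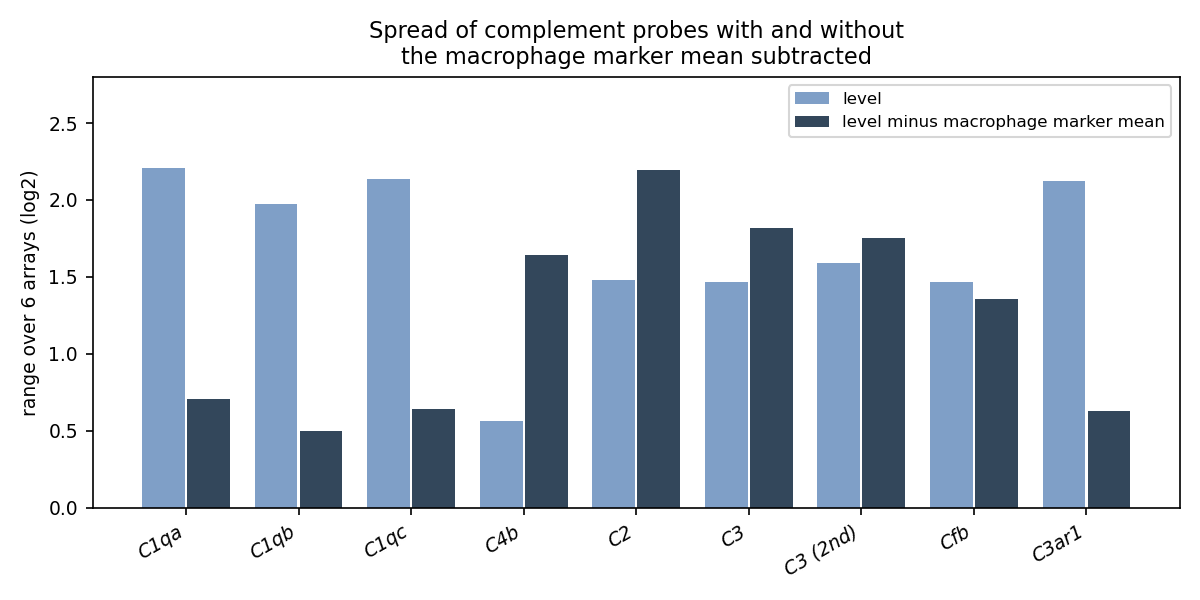
Range over the 6 arrays (highest minus lowest, log2) of each tested complement probe, for the level itself and for the level minus the array's mean of 17 macrophage markers. The C1q chains and C3ar1 shrink to 0.50 to 0.71, while C4b, C2 and both C3 probes widen.

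By this distance, which counts size as well as shape, no cell type list lay as close to C3, Cfb and C2 as the macrophage list did to C1q. The nearest to their mean were mast cell markers at 0.36 and fibroblast markers at 0.41. Mesothelial markers, from the lining around the tissue, were low on wild-type replicate 2 (-3.19) and knockout replicate 2 (-2.90), the arches lowest in C2, and highest on knockout replicate 1 (0.10), the arch highest in C3, Cfb and C2. Their swings were larger, which put them at 0.80, but their shape was close, most of all to that of C2. Over the 6 arrays, which share their scaling, Pearson's r with the mean of C3, Cfb and C2 was 0.86. By gene it was 0.97 with C2, 0.81 with C3 and 0.68 with Cfb, for which fibroblast markers had a higher r of 0.78. The mast cell markers had an r of 0.71 with that mean. With the C1q mean the macrophage markers had an r of 0.99 and the fibroblast markers one of 0.81. Hepatocyte markers, which would mark liver RNA, lay 1.04 away and differed among themselves. Only 5 of the 8 hepatocyte markers and 5 of the 6 mesothelial markers were well above background on every array. All entered the list means, so these distances include values near the floor. Albumin (Alb) read 0.13, -2.99 and -1.81 in the wild-type group, -3.54 and -0.70 on knockout replicates 1 and 3, and was not well above background on knockout replicate 2. Serpina1a, an antiprotease gene chosen after its values were seen, read 3.08, 2.57 and 2.19 against 1.74, 2.83 and 3.66. The part of these cells in the C3 pattern was not tested.

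Among the named genes tested, with the members left out, those most like C1q over the 6 arrays were Lrrc33 (distance 0.08), Ms4a7 (0.11), Rgl1 (0.11), Abcg1 (0.12) and Anpep (0.13), of 8366 genes above the 75th percentile. Ms4a7 belongs to the macrophage list, and Abcg1 encodes a cholesterol exporter. Ms4a7 read 2.06, 1.39 and 1.47 against 1.84, 2.88 and 0.84, with the same high and low arches as C1q. It was picked for its nearness to C1q, so this likeness follows from the choice. Nearest to C3 were Trap1 (0.12), a mitochondrial chaperone, Gadd45g (0.13), Clpx (0.14), a mitochondrial protease subunit, Coa5 (0.15) and Tmem119 (0.16). Nearest to C3ar1 outside the members, among 16227 genes of any level, were Naip2 (0.16), Cdk18 (0.16), Nckap1l (0.17), Anpep (0.17) and Atp6v1b2 (0.17).

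Upstream sequence was available for 5 of the 9 genes (C1qb, C1qc, C3, C3ar1 and C5ar1), as the 250 bases before the start in RefSeq, GRCm38.p6. Those of C1qb and C1qc are shown because the pair moved together most closely of the C1q chains. Capitals mark the letters GAGGAA, the core bound by the myeloid factor PU.1, on either strand.
C1qb (chr4:136886201-136886450, minus strand): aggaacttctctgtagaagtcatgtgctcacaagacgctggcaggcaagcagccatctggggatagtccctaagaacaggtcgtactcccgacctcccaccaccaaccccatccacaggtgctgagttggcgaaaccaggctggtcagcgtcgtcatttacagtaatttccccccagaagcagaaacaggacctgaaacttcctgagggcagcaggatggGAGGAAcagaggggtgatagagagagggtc
C1qc (chr4:136892915-136893164, minus strand): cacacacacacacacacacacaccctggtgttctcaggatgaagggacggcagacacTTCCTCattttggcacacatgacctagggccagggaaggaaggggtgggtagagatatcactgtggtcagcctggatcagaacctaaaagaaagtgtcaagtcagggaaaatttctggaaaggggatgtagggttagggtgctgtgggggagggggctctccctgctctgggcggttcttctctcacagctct
Each held 1 match, at position -30 from the start in C1qb and at -193 in C1qc, and the other windows held none. The same letters occur in 23.3% of 32851 windows of this length, so the matches are a description only. The clock E-box CACGTG, found in 6.02% of windows, was in none of the 5.

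Of 50 other complement genes listed, 40 could be tested, and 0 passed the adjusted test (limma). At an unadjusted p under 0.05 there were 4, 3 higher and 1 lower, which is 10% against 8.71% of all probes, and 4 had all knockout arches above all wild-type arches, against 7.68% of all probes. Their median difference was 0.12, and 26 of 40 were above 0, as were 53.3% of all probes. Of the 40, 5 (Masp1, C8b, Cfi, Cd46 and Cpn2) were not well above background on every knockout array and passed the filter through the wild-type group, the 1 lower gene, Cpn2, among them. With the filter set to well above background on all arrays, the median over 35 genes was 0.16. In that run 3 of the 35 had an unadjusted p under 0.05 (limma). The intervals of members and other complement genes are set side by side in the plot of differences.

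Initiators of the classical and lectin routes had a median of 0.36 over 9 tested genes of 13, Masp1 included. By the brightest probe of each gene, they held all 4 genes whose groups did not overlap. All 4 had the knockout group higher, as did 7.68% of all probes. Mbl2, a mannose-binding lectin, read -2.43, -3.35 and -3.35 in the wild-type group and -0.93, -1.88 and -2.09 in the knockout group, a difference of 1.41 ± 0.37 (SE; limma, adjusted p = 0.44). Fcnb, ficolin B of myeloid cells, gave 0.72 ± 0.18 (limma, adjusted p = 0.43) on its brightest probe and 0.10 on its other probe. The brightest read -2.12, -2.30 and -2.41 against -1.52, -1.80 and -1.35. Mbl2 and Fcnb were thus dim, as C3ar1 was, and their values with other background correction are not reported here. C1rb gave 0.57 ± 0.20 (limma, adjusted p = 0.51), and Colec11, a collectin, 0.36 ± 0.17. These 4 lay above in 3 of 3 knockout arches and none passed the adjusted test. C1ra and C1s1 (listed as C1s), the proteases that join C1q in the C1 complex and were singled out here after their values were seen, gave 0.23 ± 0.18 and 0.16 ± 0.32. C1ra and C1rb are close copies, so their probes may share signal.

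In the alternative route 3 of 4 listed genes were tested. Cfd, adipsin, the protease that activates factor B and a product of fat cells, read 6.82, 5.87 and 6.42 against 6.63, 5.02 and 3.78. It was low on knockout replicates 2 and 3, the arrays poor in adipocyte markers, with a difference of -1.22 ± 0.65 (SE; limma, adjusted p = 0.64), and the part of fat content in it was not tested. Cfp, properdin, which stabilises the alternative convertase, gave 0.54 ± 0.27, with levels from 2.67 to 3.45 in the wild-type group and from 3.22 to 4.00 in the knockout group.

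Of 7 terminal pathway genes 5 were tested, with a median of -0.50. That median includes C8b, which passed the filter through the wild-type group only. C8g gave -0.55 ± 0.49 on its brightest probe and -0.02 on its other. Hc, which encodes C5, gave -0.50 ± 0.62, and C6 -0.18 ± 0.22. The groups overlapped in each case. C8b read -3.79, -4.22 and -3.96 against -4.25 and -3.68 on knockout replicates 2 and 3, and was not well above background on knockout replicate 1, so no difference is given.

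Regulators had a median of 0.03 over 13 tested genes of 16, with Cfi, Cd46 and Cpn2 included. Cpn2, a subunit of the carboxypeptidase N that trims C3a and C5a, read -0.89, -1.72 and -0.25 in the wild-type group and -0.85 and -4.25 on knockout replicates 1 and 2, and was not well above background on knockout replicate 3, so no difference is given. Its low arrays, knockout replicates 2 and 3, were those poor in adipocyte markers, and the part of fat content in it was not tested. Cd46 was well above background on 1 of 3 knockout arrays. Vtn gave -0.76 ± 0.55. Cd55b (listed as Daf2) gave 0.26 ± 0.21 on its brightest probe and -0.13 on its other, so its probes disagreed in direction. Serping1, the C1 inhibitor, chosen after its values were seen, gave -0.16 ± 0.19 on its brightest probe and 0.10 on its other, again in opposite directions.

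Other receptors had a median of 0.21 over 10 genes, 9 of them above 0. Itgb2, the shared beta chain of complement receptors CR3 and CR4, read 0.09, -0.65 and -0.42 against -0.05, 1.42 and 0.21, a difference of 0.85 ± 0.39 (SE; limma, adjusted p = 0.59). Itgam, the CR3 alpha chain, gave 0.54 ± 0.24 on its brightest probe and 0.22 and -0.53 on its others, so its probes disagreed in direction. The groups overlapped on the brightest probe but on neither of the others, where the knockout group was higher at 0.22 and lower at -0.53. Itgax, the CR4 alpha chain, gave 0.79 ± 0.55 and was highest on knockout replicate 2, where macrophage markers were highest. C1qbp, a mitochondrial protein that can bind C1q, gave -0.28 ± 0.17.

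**Figure D4:**
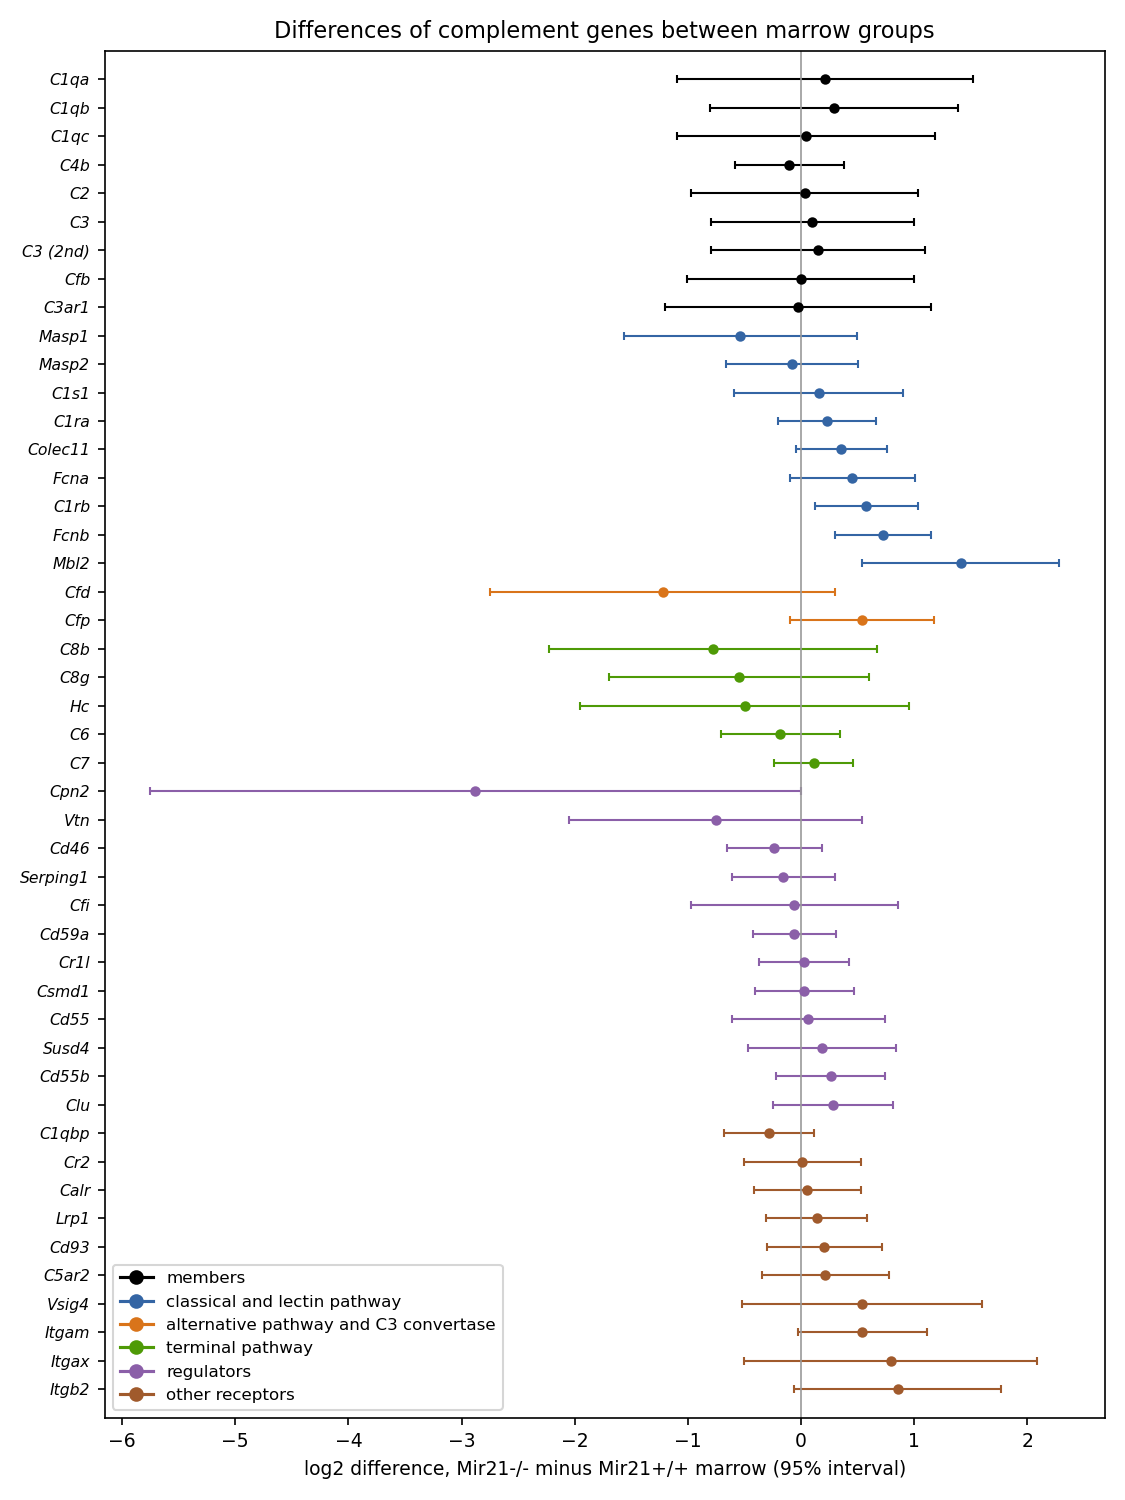
Log2 difference, knockout minus wild-type marrow, with its 95% interval from limma, for the 9 tested member probes and the other complement genes reported here (3 arches per group), coloured by role. Every member interval spans 0, and no gene shown passed the adjusted test. The values of Masp1, C8b, Cfi, Cd46 and Cpn2 include knockout arrays on which they were not well above background.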

How the data were processed

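RNA from 6 aortic arches was labelled with Cy3 (100 ng per sample, RNA integrity number above 7.5, per the labels' protocols) and read on 1-colour Agilent arrays. Agilent Feature Extraction 10.7.3.1 had detrended the signal across the array and used surrogates for dim spots, per the file headers. The deposited processed signal is a linear intensity with no scaling between arrays, and the authors' series table gave the same intensity to within 0.5%.

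Intensity was put on the log2 scale and each array's 75th percentile over non-control spots was subtracted, after removal of outlier spots. Spots of a probe were averaged. A probe was tested if every array of either group, 3 of 3, measured it well above background (38340 probes, with 12 set aside for outlier spots). The test was limma 3.58.1 (R 4.3.3, two-sided), which was checked on simulated data. The brightest tested probe stood for a gene. Levels relative to macrophage markers were tested with an exact permutation test. Named genes were all members, of each pathway list the 4 with the smallest p, Cfd, 5 marker genes and the 5 nearest profiles. C1ra, C1s1, Serping1, Masp1, Cfi and some marker genes were added after their values were seen, and items of the pathway lists are not reported here. Members and lists were chosen with earlier results of these data known. Alternatives changed the background correction, normalization, dim-probe filter, input table, variance model, array weights, replicate block and arrays included. Same-numbered mice were not treated as paired, since their deviations correlated at 0.12, 0.05 and -0.28. The number of arrays limits the precision.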

Additional observations from a re-analysis of the deposited data

How the results depend on the processing

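With 3 mice per group, any change within the printed intervals remains possible, and the intervals are not limits of detection for the adjusted test. C3ar1, a dim probe, depended on background correction. In each alternative run, 0 member probes and 0 of the other complement genes passed the adjusted test, the fit with a replicate block included (0 and 0, with 6 other complement genes at an unadjusted p under 0.05). Of the members only C1qb, without knockout replicate 3, had an unadjusted p under 0.05 in any alternative (limma, 0.046, adjusted p = 0.74). Several differences near 0 changed sign: C3ar1 was 0.15 with normexp and 0.18 with array weights, Cfb 0.032 with quantile normalization, and array weights gave C3 -0.24 and -0.19 on its brighter and dimmer probes and C2 -0.44. Without knockout replicates 2 and 3 together, which leaves 1 knockout array that is assumed to vary as the wild-type arrays do, C3 was 0.84 and 0.91 on its brighter and dimmer probes, C2 0.69, Cfb 0.55, C4b 0.22 and the member median 0.38. Leaving out 1 array at a time, differences ran from -0.30 to 0.80 for C1qa, -0.18 to 0.81 for C1qb, -0.49 to 0.58 for C1qc, -0.36 to 0.37 for C2, -0.27 to 0.32 for the brighter and -0.23 to 0.42 for the dimmer C3 probe, -0.46 to 0.26 for Cfb, -0.27 to 0.012 for C4b and -0.61 to 0.45 for C3ar1. The member median ran from -0.18 without wild-type replicate 2 to 0.45 without knockout replicate 3. The runs without knockout replicate 3, alone or together with replicate 2, also took in C5ar1, which passed the filter there through the knockout group. Their medians of 0.45 and 0.38 therefore cover 9 genes and not the 8 of the main run. Relative to macrophage markers the member median was -0.11 and ran from -0.27 to 0.15, the latter without knockout replicate 2. Single members ran from -0.12 to 0.29 (C1qa), -0.25 to 0.071 (C1qc), -0.49 to 0.61 (C2), -0.43 to 0.48 (C3), -0.57 to 0.25 (C4b) and -0.44 to 0.24 (Cfb). C1qb (0.056 to 0.29) and C3ar1 (-0.37 to -0.060) kept their sign. The cause of these shifts was not tested.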
